A study of Homo sapiens with 4 samples.

Results

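Transcripts of 10 genes that mark epithelial or mesenchymal cells were followed in RNA immunoprecipitation sequencing (RIP-seq) of HCCLM3 cells, an established human hepatocellular carcinoma line known for its metastatic capacity. The members were chosen by name, 7 epithelial (KRT8, KRT18, KRT7, KRT19, CDH1, EPCAM and CLDN4) and 3 mesenchymal (VIM, CDH2 and FN1), and every listed transcript that carried one of these gene names was kept. This gave 9 genes with 41 transcripts, among 13300 genes with 34975 transcripts in all. RNA bound by KIAA1429, also named VIRMA, was precipitated with its antibody in 2 libraries, and normal IgG was used for the 2 control libraries. The labels name the same cell line for all 4 libraries, with no further treatment or genetic change, and do not say whether the 2 replicates of a group were separate cultures, so p-values measure only the spread between these libraries, which may be technical. The values were FPKM per transcript (fragments scaled to transcript length and to the mapped fragments of a library), which can be compared between genes, and a gene total is the sum over the listed transcripts of a gene. The comparison addresses which mRNAs made up a larger share of the RNA recovered with KIAA1429 than of that recovered with IgG. FPKM is relative within a library, so the total amount of RNA recovered was not measured. An unchanged FPKM therefore does not show that an mRNA was recovered equally by both antibodies.

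KIAA1429 is a scaffold subunit of the complex that writes N6-methyladenosine (m6A) on mRNA. Epithelial cells hold together through cadherin and claudin junctions and carry a network of paired keratins, in which KRT8 or KRT7 (type II) assembles with KRT18 or KRT19 (type I). In an epithelial-mesenchymal transition (EMT) cells lose such junctions and gain vimentin filaments, N-cadherin and fibronectin, and carcinoma lines often express genes of both states. Hepatocytes normally express KRT8 and KRT18, whereas KRT7, KRT19 and EPCAM are better known from bile duct cells and liver progenitors.

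The epithelial keratins KRT18, KRT8 and KRT19 and the mesenchymal marker VIM had high levels in both kinds of precipitate. KRT18 and VIM had the highest gene totals among the members, KRT8 and KRT19 came next, FN1 and KRT7 stood between 18.3 and 53.9 FPKM, and EPCAM, CDH2 and CLDN4 lay near the lower end of the listed range. The member totals summed to between 0.717% and 0.847% of all FPKM in a library. None of the 8 gene totals that passed the filter (an average of 1 FPKM or more across all 4) was called between KIAA1429 RIP and IgG RIP, with a background of 0% called among the 11361 gene totals tested by limma on log2(FPKM + 1). A call was a log2 fold change beyond 1 with a Benjamini-Hochberg adjusted p under 0.05. The unadjusted p was under 0.05 for 522 of all gene totals (4.59%) and for 0 of the 8 members, whose adjusted p was 0.997 in each case. The median log2 fold change of the 8 members was 0.08, and that of all gene totals tested was 0.02.

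**Figure D1:**
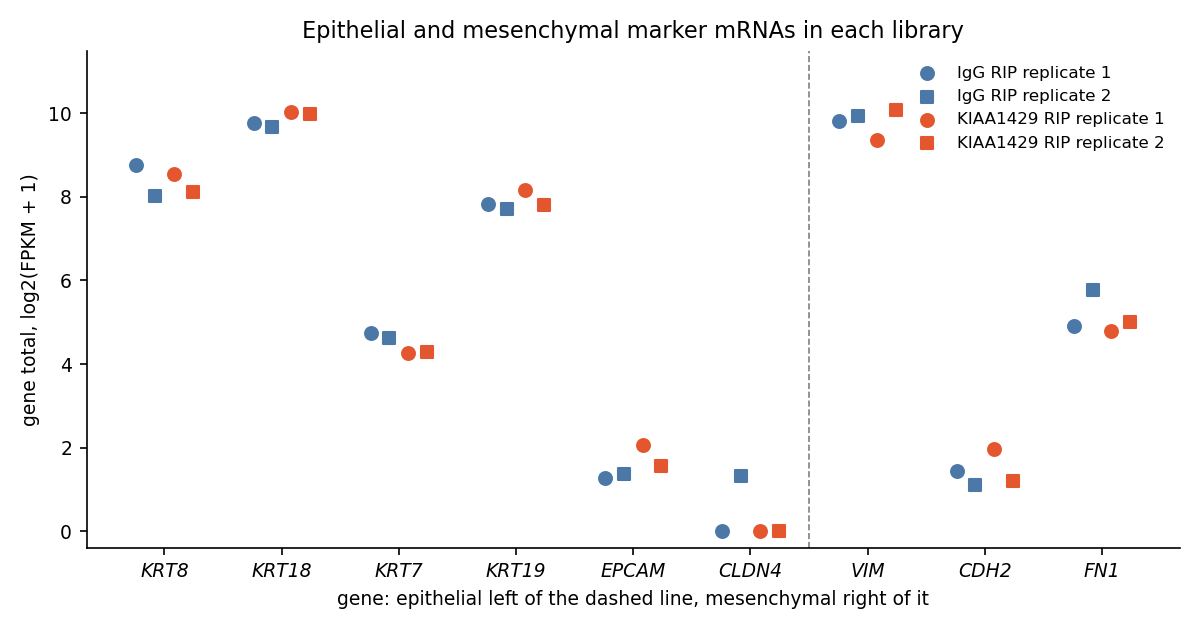
Gene totals of the 9 listed marker genes as log2(FPKM + 1), with 1 point for each library, blue for IgG RIP and orange for KIAA1429 RIP. KRT18 (820 to 1048 FPKM) and VIM (659 to 1084 FPKM) stand highest. The points of both colours lie close together for each gene compared with the range over all 9 genes, although genes of similar level, such as KRT18 and VIM, overlap.

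KRT18, the type I keratin of simple epithelia, had gene totals of 879 and 820 FPKM in the IgG RIP libraries 1 and 2 and of 1048 and 1006 FPKM in the KIAA1429 RIP libraries 1 and 2. Both KIAA1429 values lay above both IgG values, with means of 1027 ± 29.7 FPKM (SD, n = 2) and 849.6 ± 41.7 FPKM (SD, n = 2). The log2 fold change was 0.27 (SE 0.37) and was not called, and its sign turned under quantile normalization (-0.034).

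KRT8, the type II partner of KRT18, had 432 and 260 FPKM with IgG and 376 and 278 FPKM with KIAA1429. The groups overlapped, and the 2 IgG libraries stood farther apart than any IgG library from a KIAA1429 library. The log2 fold change of the KRT8 total was -0.05 (SE 0.38). The ratio of the KRT18 to the KRT8 total was 2.03 and 3.16 in the IgG libraries and 2.79 and 3.62 in the KIAA1429 libraries, so more KRT18 than KRT8 was measured in all 4.

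KRT19, a type I keratin of bile ducts, had 226 and 208 FPKM with IgG and 285 and 225 FPKM with KIAA1429. The lower KIAA1429 library fell just under the higher IgG library, and the log2 fold change was 0.22 (SE 0.30). KRT7, its usual type II companion in ducts, had 26.0 and 23.5 FPKM with IgG and 18.3 and 18.4 FPKM with KIAA1429. Both KIAA1429 values were below both IgG values, with a log2 fold change of -0.41 (SE 0.30). KRT19 was measured below KRT8 in every library, and the KRT7 total was lower than each of the other 3 keratin totals in every library.

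Of the junction and adhesion members, CDH1 (E-cadherin, the core of the adherens junction) is not analysed here, because no listed transcript carried its name. EPCAM, a surface glycoprotein of epithelial and progenitor cells, had 1.41 and 1.56 FPKM with IgG and 3.21 and 1.97 FPKM with KIAA1429. The KIAA1429 libraries were both higher, with a log2 fold change of 0.51 (SE 0.55) that was not called. These EPCAM values were worth about 4.3, 3.6, 8.7 and 6 reads in the same order of libraries, by the estimate of reads per FPKM described with the processing. CLDN4, a tight junction claudin, was listed at 0 FPKM in 3 libraries and at 1.51 FPKM in the IgG RIP library 2, about 3.8 reads, and did not pass the filter.

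VIM, the intermediate filament protein of mesenchymal cells, had 907 and 980 FPKM with IgG and 659 and 1084 FPKM with KIAA1429. The 2 KIAA1429 libraries held the lowest and the highest value, so the groups overlapped, and the log2 fold change was -0.16 (SE 0.41). The level of VIM was close to that of KRT18, with KRT18 to VIM ratios of 0.97 and 0.84 in the IgG libraries and 1.59 and 0.93 in the KIAA1429 libraries.

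CDH2 (N-cadherin), the cadherin that replaces E-cadherin in EMT, had 1.69 and 1.16 FPKM with IgG and 2.94 and 1.29 FPKM with KIAA1429. The groups overlapped, with a log2 fold change of 0.31 (SE 0.59), and the values were worth about 13.4, 7, 20.7 and 10.1 reads. FN1 (fibronectin), the matrix glycoprotein, had a gene total of 28.9 and 53.9 FPKM with IgG and 26.5 and 31.2 FPKM with KIAA1429. Its groups overlapped as well, and the log2 fold change of the total was -0.44 (SE 0.37), which became -0.006 without the IgG RIP library 2 and -0.88 without the IgG RIP library 1.

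Across the 8 member totals tested, the libraries of the groups did not overlap for 2 with KIAA1429 RIP higher (KRT18 and EPCAM), against a background of 16.6% of all gene totals, and for 1 with KIAA1429 RIP lower (KRT7), against 15.2%. The other 5 overlapped. With protein_coding transcripts only, and with the transcript of highest mean in place of the total, 0 were lower, and the log2 fold change of KRT7 turned to 0.49 and 0.42. None of the 8 differed by at least 2-fold in its group means, which 13.7% of all gene totals did, and without the KIAA1429 RIP library 2 the count was 2. The summed totals of the 4 keratins over those of the 3 mesenchymal genes gave 1.67 and 1.27 in the IgG libraries and 2.51 and 1.37 in the KIAA1429 libraries. The KIAA1429 RIP library 1, which had the lowest VIM total, gave the highest of these ratios, and the other 3 libraries lay closer together.

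**Figure D2:**
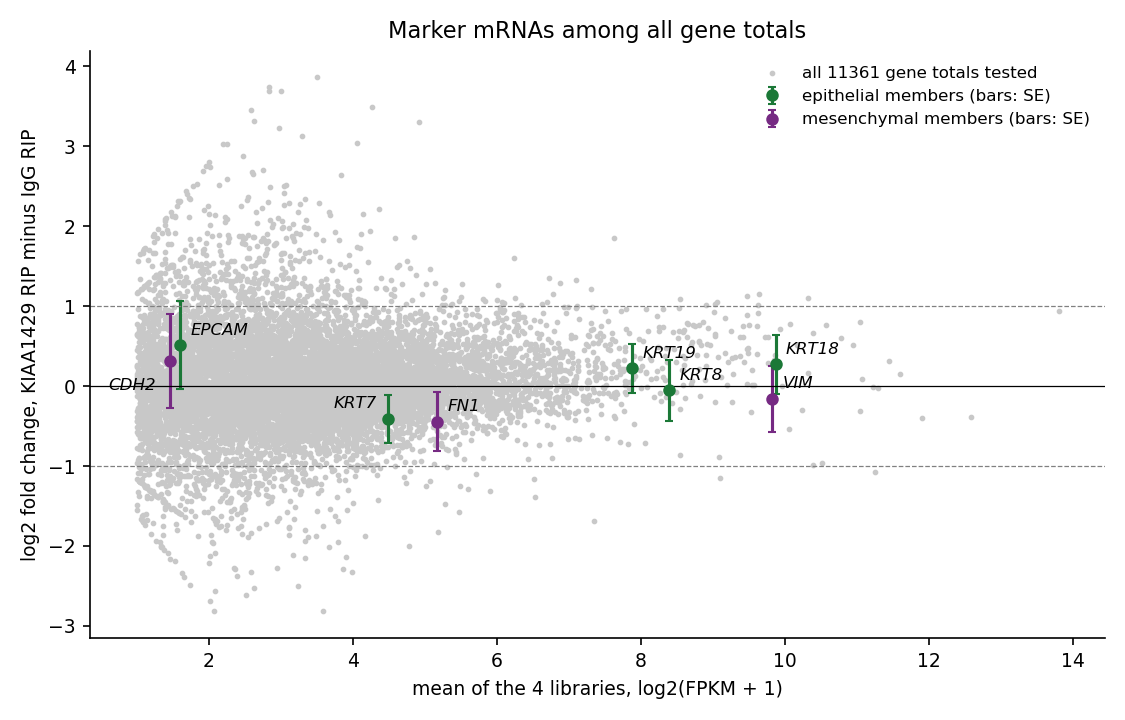
Log2 fold change between KIAA1429 RIP and IgG RIP against the mean level, as log2(FPKM + 1), for the 11361 gene totals tested (grey) and the 8 marker genes (green epithelial, purple mesenchymal, bars SE), with dashed lines at a log2 fold change of 1 in either direction. All 8 lie inside the dashed lines, from -0.44 (FN1) to 0.51 (EPCAM).

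The transcripts of FN1 differed between libraries far more than its total. Fibronectin pre-mRNA is spliced at cassette exons named EDB and EDA, each of which codes for 1 extra fibronectin domain, and forms that hold them are typical of embryonic, wound and tumour tissue rather than of the plasma fibronectin made by hepatocytes. FN1 lies on the minus strand of chromosome 2. On GRCh37, EDB is chr2:216257654-216257926 (273 bases, 91 codons) and EDA is chr2:216245534-216245803 (270 bases, 90 codons), both coding exons. The transcript FN1-203 holds both exons and FN1-211 holds neither. The 30 bases at their junctions, read 5′ to 3′ from the reference genome with the alternative exon in capitals, show how these 2 forms differ at EDB and EDA.
FN1-203 into EDB: ataccatcatcccagAGGTGCCCCAACTCA
FN1-203 out of EDB: TGACACAACAAACGGctgttcctcctccca
FN1-211 across EDB: ataccatcatcccagctgttcctcctccca
FN1-203 into EDA: agactgcagtaaccaACATTGATCGCCCTA
FN1-203 out of EDA: GAACCCAGTCCACAGctattcctgcaccaa
FN1-211 across EDA: agactgcagtaaccactattcctgcaccaa

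FN1-203 had 0.376 and 1.88 FPKM in the IgG libraries and 19.3 and 25.1 FPKM in the KIAA1429 libraries. Both KIAA1429 values lay far above both IgG values, and the means were 22.2 ± 4.11 FPKM (SD, n = 2) and 1.13 ± 1.07 FPKM (SD, n = 2), a ratio of 19.6. The log2 fold change was 3.53 (SE 0.56), with an unadjusted p of 0.00188 by limma. Adjusted over the 23375 transcripts tested, the p was 0.506, and the transcript was not called.

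FN1-211, the second most abundant FN1 transcript, had 2.39 and 34.03 FPKM with IgG and was listed at 0 in both KIAA1429 libraries. The unadjusted p was 0.041 and the adjusted p 0.879, and the value rests mostly on the IgG RIP library 2. FN1-213, a shorter transcript that begins within EDB, was listed above 0 only in the IgG RIP library 2, at 10.4 FPKM (adjusted p = 0.879). The 12 listed FN1 transcripts, of 27 annotated, differed in make-up from library to library, while the total stayed within 26.5 to 53.9 FPKM.

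The FN1 transcripts were then added up by the exons they hold, a grouping chosen after their values were seen and given as a description without a test. Of the FPKM on transcripts whose EDA status is known, transcripts with EDA held 44.1% and 3.50% in the IgG libraries and 99.7% and 100% in the KIAA1429 libraries. For EDB the shares were 57.6% and 4.34% with IgG and 79.7% and 90.8% with KIAA1429. The EDB shares leave out FN1-213, which begins within EDB and had 10.4 FPKM in the IgG RIP library 2. FN1-210, which covers neither exon, was left out of both. The EDA and EDB shares were higher in the KIAA1429 libraries than in the IgG libraries, and the 2 IgG libraries stood far apart from each other in each. The EDA share and the level of FN1-203 are not separate measurements, since FN1-203 made up 72.6% and 80.3% of the FN1 total in the KIAA1429 libraries.

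**Figure D3:**
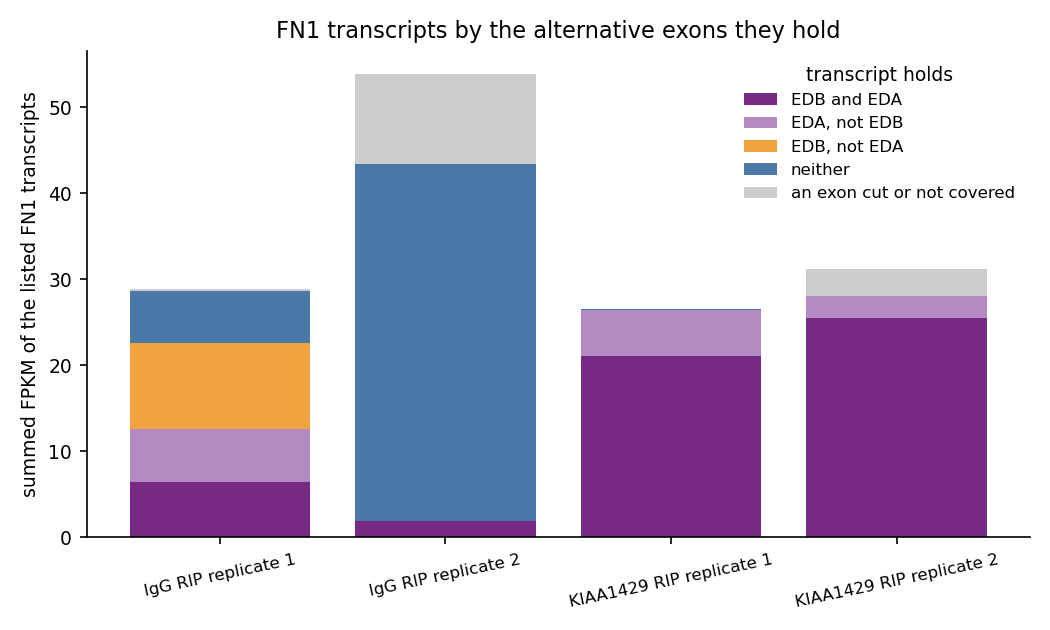
Summed FPKM of the listed FN1 transcripts in each library, stacked by whether a transcript holds the alternative exons EDB and EDA (grey where an exon is cut by the transcript's end or not covered). Transcripts with both exons make up 79.7% and 81.7% of the FN1 total in the KIAA1429 RIP libraries and 22.4% and 3.50% in the IgG RIP libraries.

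The division of FPKM among FN1 transcripts is an estimate made by the authors' software from shared reads. In the annotation used here no base and no exon junction of FN1-203 was absent from all the other listed FN1 transcripts. The version that was quantified reaches farther at both ends. Its 5′ end lies at chr2:216300895, upstream of all other listed FN1 transcripts, of which FN1-211 reaches farthest (chr2:216300796). It thus holds 5′ bases of its own, and how far its level rests on these or on the combination of exons was not tested. The FN1 gene total depends on that division too, since FPKM is scaled to transcript length, and a read placed on a short transcript adds more FPKM than 1 placed on FN1-203. In approximate reads summed over its transcripts FN1 had 457 and 565 with IgG and 391 and 466 with KIAA1429, without scaling for depth. Reads over single exons are not analysed here, so the part of the division in the FN1-203 difference was not tested.

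Over all members, 33 of the 41 transcripts passed the filter and 0 were called by limma, with a background of 0% among the 23375 transcripts tested. The unadjusted p was under 0.05 for 3 of the 33 (FN1-203, FN1-211 and VIM-210), where 5.36% of all transcripts tested passed it. The groups did not overlap for 5 transcripts with KIAA1429 RIP higher (15.2% of all transcripts tested) and for 6 with KIAA1429 RIP lower (14.5%). At least 2-fold differences in the means were seen for 3 transcripts with KIAA1429 RIP higher (19.9%) and for 12 with KIAA1429 RIP lower (20.3%). The 12 included FN1-201, FN1-204, FN1-209, FN1-211, FN1-212 and FN1-213, and also KRT7-202, KRT7-212 and KRT7-213. Transcripts of the same gene divide shared reads among them, so these counts are not of separate members. The median log2 fold change of the member transcripts was -0.38, against 0.01 for all transcripts tested. That of the 8 member gene totals was 0.08. Of the 41, 18 were listed at 0 in at least 1 library.

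KRT18 was carried by a pair of transcripts, KRT18-201 (chr12:53342748-53346685, plus strand) and KRT18-202 (chr12:53342655-53346684). In the annotation used here they code for the same 430 codons and share 1352 bases. That annotation holds another version of KRT18-201, which starts at chr12:53342902, so the shared bases of the quantified version may differ. KRT18-201 had 396 and 340 FPKM with IgG and 819 and 503 FPKM with KIAA1429, with both KIAA1429 values higher and a log2 fold change of 0.80 (SE 0.36, adjusted p = 0.879 by limma). KRT18-202 had 483 and 480 FPKM with IgG and 218 and 502 FPKM with KIAA1429, and its groups overlapped (log2 fold change -0.54, SE 0.47). The KIAA1429 RIP library 1 held both the highest KRT18-201 and the lowest KRT18-202 value, while its KRT18 total was close to that of the KIAA1429 RIP library 2. The third, KRT18-207, had at most 0.379 FPKM in 3 libraries and 10.8 FPKM in the KIAA1429 RIP library 1 (log2 fold change 1.54, SE 1.38).

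KRT8 was split in the same way between KRT8-201 (chr12:53290978-53300402, minus strand) and KRT8-215 (chr12:53291081-53320253, minus strand). KRT8-215 starts at an upstream first exon and holds 84 coding bases that KRT8-201 lacks, while 1629 bases are shared, 86.6% of KRT8-201. The 30 bases around this junction, with the bases of 1 form only in capitals, mark where they part.
KRT8-215 first junction: GGACCTGCAGGAAGGgatctccgcctggtt
KRT8-201 over the same bases: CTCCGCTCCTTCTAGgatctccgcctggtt

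KRT8-201 had 63.5 and 101 FPKM with IgG and 179 and 118 FPKM with KIAA1429. Both KIAA1429 values were higher, with a log2 fold change of 0.85 (SE 0.39, adjusted p = 0.879 by limma). KRT8-215 had 318 and 77.9 FPKM with IgG and 129.6 and 114 FPKM with KIAA1429, and the IgG RIP library 1 alone stood apart from the other 3. Its log2 fold change of -0.38 (SE 0.71) became 0.63 without that library. KRT8-202, a short coding transcript, had 18.0 and 20.9 FPKM with IgG and 16.0 and 7.46 FPKM with KIAA1429, with both KIAA1429 values lower and a log2 fold change of -0.77 (SE 0.48).

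KRT8 and KRT18 are neighbours on chromosome 12 on opposite strands, and 6 of the 10 listed KRT8 transcripts (KRT8-204, KRT8-210, KRT8-212, KRT8-214, KRT8-216 and KRT8-217) share between 62 and 135 exonic bases with KRT18 on the other strand. Each of these 6 had 17.3 FPKM or less in every library. Whether the counting used the strand is not given in the sources used here, and without it reads from the shared bases could not be told apart. The same holds for VIM-201, which shares 641 exonic bases with the antisense gene VIM-AS1, and for KRT7-201, which shares 221 with KRT7-AS. Keratins also have processed pseudogenes, and how reads that match more than 1 place were treated is likewise not given, which leaves the levels of KRT8, KRT18 and KRT19 uncertain to that extent.

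KRT19 was nearly a single transcript. KRT19-201 had 207 and 194 FPKM with IgG and 262 and 225 FPKM with KIAA1429, with both KIAA1429 values higher (log2 fold change 0.27, SE 0.28). The shorter KRT19-202 had 18.4 and 14.2 FPKM with IgG, 19.2 FPKM in the KIAA1429 RIP library 1 and was listed at 0 in the KIAA1429 RIP library 2 (log2 fold change -1.93, SE 1.47). KRT19-207, listed above 0 in the KIAA1429 RIP library 1 alone, had 3.71 FPKM there and did not pass the filter.

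KRT7 showed opposite signs for its total and its main coding transcript. KRT7-201 had 16.1 and 7.22 FPKM with IgG and 15.4 and 14.4 FPKM with KIAA1429, and the groups overlapped (log2 fold change 0.42, SE 0.49). Apart from KRT7-214, a coding transcript that did not pass the filter, the rest were of the type processed_transcript, with no annotated coding region. KRT7-212 had 6.77 and 2.27 FPKM with IgG and 1.80 and 1.26 FPKM with KIAA1429 (log2 fold change -1.004, SE 0.69). KRT7-202, with 292 bases, was listed at 11.1 FPKM in the IgG RIP library 2 and at 0 in the other 3, about 4.8 reads. In FPKM the lower KRT7 total with KIAA1429 thus came from its non-coding transcripts. Restricted to the type protein_coding, the KRT7 total had a log2 fold change of 0.49. In approximate reads summed over the transcripts with a known length KRT7 had 64.7 and 26.8 with IgG and 46.8 and 49.3 with KIAA1429. Without scaling for depth, these read numbers overlapped between the groups.

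VIM-201 carried between 88.0% and 92.3% of the VIM total in each library. It had 815 and 905 FPKM with IgG and 596 and 954 FPKM with KIAA1429 (log2 fold change -0.19, SE 0.36), and the groups overlapped. The non-coding VIM-205 had 87.0 and 54.1 FPKM with IgG and 60.2 and 127 FPKM with KIAA1429 (log2 fold change 0.35, SE 0.49). VIM-210, a non-coding transcript of 508 bases, had 3.86 and 10.99 FPKM with IgG and 0.658 and 1.34 FPKM with KIAA1429. Both KIAA1429 values were lower, with a log2 fold change of -1.95 (SE 0.69), an unadjusted p of 0.040 and an adjusted p of 0.879 by limma. EPCAM, CLDN4 and CDH2 had 1 listed transcript each.

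**Figure D4:**
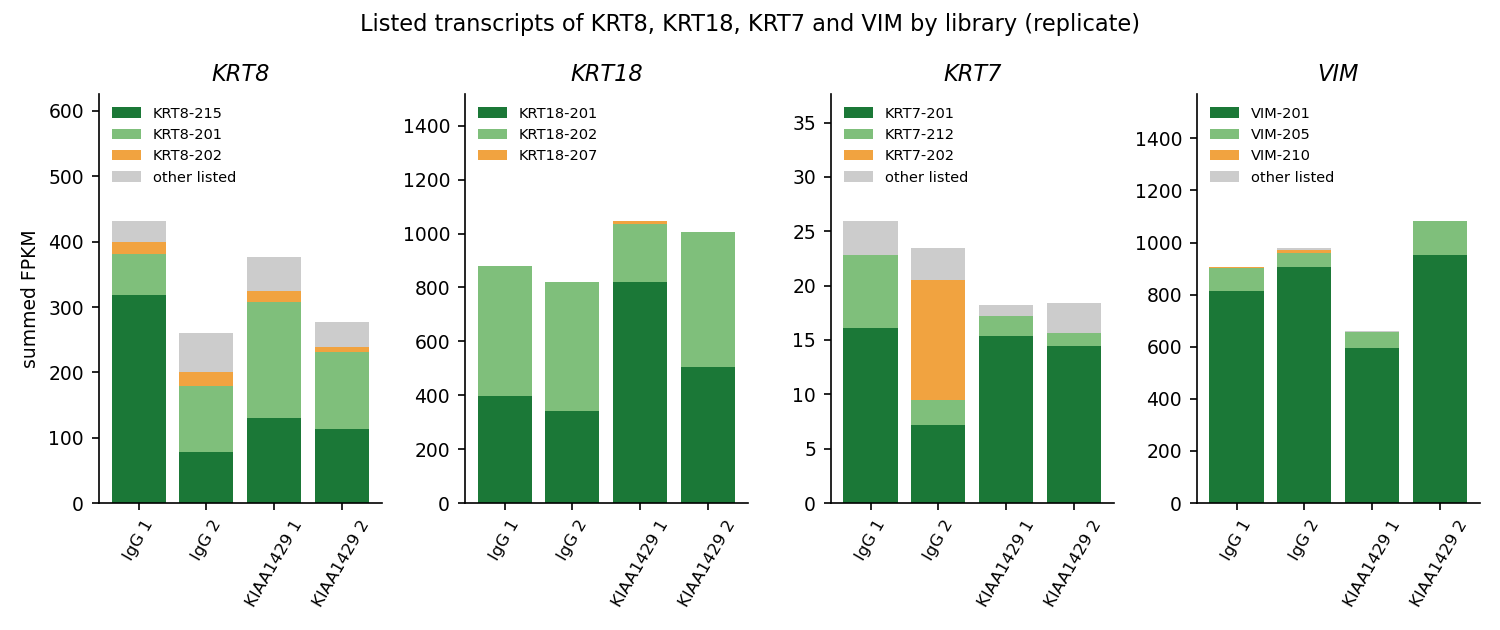
Summed FPKM of the 3 most abundant listed transcripts of KRT8, KRT18, KRT7 and VIM in each library, with any others in grey. The VIM bars are nearly all VIM-201, whereas KRT8-215 makes up 73.7% of the KRT8 total in the IgG RIP library 1 and 29.99% to 40.9% in the other 3.

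The core letters GGAC of the m6A consensus were counted on the sense strand of 1 leading transcript per gene, because KIAA1429 belongs to the m6A writer. VIM-201 held 3.75 GGAC per kb, near the median of 3.78 per kb over the 33938 listed transcripts with a sequence. The other members lay above that median, with 4.48 per kb in CDH2-201, 4.77 in FN1-203, 5.76 in KRT19-201, 5.82 in EPCAM-201, 5.93 in KRT8-215, 6.15 in KRT7-201, 7.08 in KRT18-201 and 8.85 in CLDN4-201. The median covers coding and non-coding transcripts, whereas these member transcripts are all coding, so the sets are unlike and no enrichment was tested. For CDH2-201, FN1-203, EPCAM-201, KRT7-201, KRT18-201 and CLDN4-201 the sequence is of another version than the one quantified. At least 1 GGAC was present in 96.3% of the 33938 transcripts, so its presence does not set the members apart. A match is a run of letters and not a measured methylation site.

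The wider epithelial and mesenchymal programmes were followed in 5 lists of 89 genes in all, of which 66 were listed and 58 tested. None of the 58 was called by limma and 0 had an unadjusted p under 0.05, against 0% and 4.59% of all gene totals. The groups did not overlap for 10 with KIAA1429 RIP higher and for 7 with KIAA1429 RIP lower, against 16.6% and 15.2% of all gene totals. At least 2-fold differences in the means were seen for 3 in each direction, against 13.7% of all gene totals in either direction. The median log2 fold change of the 58 was 0.04.

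Of 22 junction and adhesion genes, 19 were listed and 16 tested, 8 of them with a log2 fold change above 0 (median 0.01). The highest was CTNNB1 (beta-catenin, which links cadherins to actin and acts in Wnt signalling), with 67.9 and 58.9 FPKM with IgG and 65.7 and 57.7 FPKM with KIAA1429. CDH1 and CDH3 were not listed. Of 15 keratins, 8 were listed and 7 tested (median -0.05), led by KRT18. The keratins of stratified or intestinal epithelia KRT5, KRT6A, KRT13, KRT14, KRT17 and KRT20 were not listed, nor was KRT23. Of 11 epithelial splicing, transcription and protease regulators, 4 were listed and 3 tested (median -0.10), and ESRP1, ESRP2, GRHL2, OVOL1, OVOL2, SPINT2 and ST14 were not listed. ESRP1 and ESRP2 are the splicing factors of the epithelial state. The highest of this list was KLF4, a transcription factor that maintains epithelial differentiation, with 1.80 and 11.6 FPKM with IgG and 3.89 and 5.31 FPKM with KIAA1429.

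Of 25 mesenchymal cytoskeleton, adhesion and matrix genes, 20 were listed and 19 tested, 12 of them with a log2 fold change above 0 (median 0.07), led by VIM. The matrix genes COL1A1, COL1A2, MMP2 and MMP9 and the cadherin CDH11 were not listed. Of 16 EMT transcription factors and TGF-beta signalling genes, 15 were listed and 13 tested, 6 of them above 0 (median -0.07). The highest was SMAD3, which carries the TGF-beta signal to the nucleus, with 66.9 and 61.9 FPKM with IgG and 45.6 and 69.1 FPKM with KIAA1429. SNAI1, a repressor of E-cadherin, was not listed. The 2 groups overlapped for SMAD3, CTNNB1 and KLF4.

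**Figure D5:**
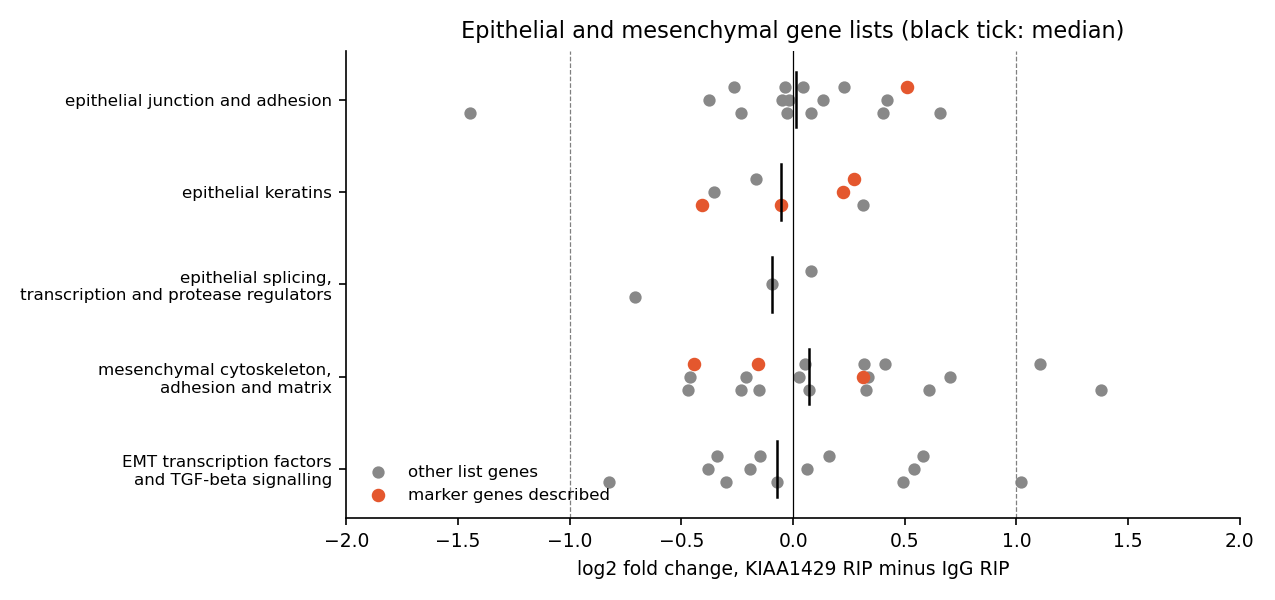
Log2 fold changes between KIAA1429 RIP and IgG RIP of the 58 tested genes of the 5 epithelial and mesenchymal lists, with the 8 marker genes in orange, the list medians as black ticks and dashed lines at a log2 fold change of 1 in either direction. The list medians lie between -0.10 and 0.07, and no gene was called.

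The labelled liver cancer origin was checked by hepatocyte genes, of which 15 of 16 were listed. AFP, the fetal serum protein of hepatocytes and liver tumours, had 121 and 128 FPKM with IgG and 99.1 and 115 FPKM with KIAA1429, and ALB (albumin) had between 53.5 and 76.3 FPKM. APOH, a plasma apolipoprotein, had 0.855 and 1.14 FPKM with IgG and 4.59 and 5.04 FPKM with KIAA1429. Its log2 fold change was 1.55 (SE 0.52) with an unadjusted p of 0.020, and its adjusted p was 0.997 by limma. Of 6 cholangiocyte genes 5 were listed (not CFTR), led by KRT19, with summed levels of 368 and 284.0 FPKM with IgG and 399 and 321 FPKM with KIAA1429. The pan-leukocyte marker PTPRC and the T cell marker CD3E were not listed, and the 2 of 5 leukocyte genes that were listed, CD68 and LYZ, summed to between 38.6 and 87.0 FPKM, mostly CD68. None of 4 endothelial genes (PECAM1, VWF, CDH5 and KDR) was listed. Of 6 fibroblast genes 2 were listed, led by COL3A1 with 15.1 and 12.2 FPKM with IgG and 12.3 and 7.46 FPKM with KIAA1429, while COL1A1, COL1A2, DCN and LUM were not.

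VIRMA, the gene of the precipitated protein, had 18.0 and 10.01 FPKM with IgG and 18.2 and 11.6 FPKM with KIAA1429 (log2 fold change 0.11, SE 0.42). This is the level of its mRNA and does not measure the precipitation of the protein. Between 26.6% and 32.2% of listed transcripts were at 0 in a library, and FPKM summed to between 295573 and 340300 per library.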

How the data were processed

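RIP-seq was analysed for 4 libraries, 2 with an antibody against KIAA1429 and 2 with normal IgG, grouped by their labels. The authors deposited FPKM per transcript for each library. By their methods, poly(A) RNA was fragmented, primed with random hexamers, sequenced and aligned to hg19 (GRCh37) with HISAT2, and the submitters' processing notes name Bowtie2 2.1.0. The tool that gave FPKM and its annotation are not given in the sources used here. The higher group mean of every listed transcript was at least 0.50012 FPKM, so genes below that level are outside this work.

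After a filter at a mean of 1 FPKM, limma 3.58.1 (R 4.3.3) was run two-sided on log2(FPKM + 1), by lmFit and eBayes with trend, with Benjamini-Hochberg adjustment over all features tested. Fold changes are on that scale, which understates those of low genes. An exact permutation of 2 against 2 cannot go below a two-sided p of 0.333. Because the values are not counts, no count test was run. Python 3.11.15 with pandas 2.3.3 was used for the rest.

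Depth is not given by the files. For genes with 1 listed transcript, FPKM times length from GENCODE v44lift37 was a whole multiple of 1 step per library, within 0.05, for 41.8% to 45.3% of low values, and for 7.69% to 8.14% at the median of the steps tried. The steps put the relative depth at 100%, 75.8%, 88.9% and 99.4% for IgG RIP libraries 1 and 2 and KIAA1429 RIP libraries 1 and 2. Read numbers in the text are FPKM times length over that step. They are approximate where the annotation holds another version of the transcript (EPCAM, CLDN4, CDH2, FN1-203, KRT7-201), and KRT7-214 had no length there. They cover counting error only.

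The members and the gene lists were chosen with earlier results of these data known. Named were the members, the 3 most abundant transcripts of each and any with an unadjusted p under 0.05, VIRMA, and of each list its highest gene, any gene with an unadjusted p under 0.05 and a log2 fold change beyond 1, and the genes not listed, some of which are not reported here. ALB, LYZ and the FN1 exon groups were added after their values were seen. Alternatives were other pseudocounts, filters and scalings, the replicate block, protein_coding transcripts only, the transcript of highest mean in place of the gene total, and leaving out each library. Sequences and exons are those of GRCh37 and GENCODE v44lift37, the build of the files.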

Additional observations from a re-analysis of the deposited data

How the results depend on the processing

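No member gene total, member transcript or gene of the epithelial and mesenchymal lists was called under any of the alternatives run. The replicate numbers are shared between the groups but the labels do not say what a number marks, and same-numbered libraries deviated together only weakly (correlation of deviations 0.19 for gene totals and 0.03 for transcripts). With the replicate block, 13 of all gene totals were called instead of 0, none of them a member or list gene, and no other call changed. The sign turned for the KRT18 total under quantile normalization (-0.034), for the KRT7 total with the most abundant transcript (0.42) or protein_coding transcripts only (0.49), and with the most abundant transcript for the FN1 total (3.53, FN1-203) and the VIRMA total (-0.50). In the first case the cause was not tested, and in the others the alternative takes other transcripts.

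Leaving out 1 library leaves a group with a single library, which is assumed to vary like the rest. The log2 fold change then ranged from -0.42 to 0.31 for the KRT8 total, -0.52 to 0.20 for VIM, -0.077 to 0.71 for CDH2 and -0.28 to 0.50 for VIRMA. For transcripts the ranges that crossed 0 were -1.14 to 0.062 for KRT18-202, -0.22 to 3.31 for KRT18-207, -4.10 to 0.23 for KRT19-202, -0.10 to 0.95 for KRT7-201, -1.38 to 0.63 for KRT8-215, -0.53 to 0.15 for VIM-201 and -0.19 to 0.88 for VIM-205. FN1-203 ranged from 2.99 to 4.06, and FN1-213 and KRT7-202 were at 0 without the IgG RIP library 2. The FN1 total ranged from -0.88 to -0.006. Member totals at least 2-fold apart ranged from 0 to 2, the latter without the KIAA1429 RIP library 2. Groups of the member totals did not overlap for 4 genes after median scaling, 4 with the most abundant transcript and 2 with protein_coding transcripts only, against 3. There were 2 libraries a group and few reads for EPCAM, CLDN4 and CDH2, and levels of single transcripts rest on the authors' division of shared reads.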
